A study of Macaca mulatta with 12 samples.

Results

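The transcripts examined here are 10 marker genes of macrophages and of Kupffer cells, the macrophages that live in the liver. They were taken by name, as known markers: CSF1R, CD163, MARCO, CD5L, VSIG4, C1QA, C1QB, C1QC, CD68 and TIMD4. Of the 10 genes, 7 matched an identifier among the 23993 genes of the transcript table, and all 7 had enough counts to be tested among 18373 genes. TIMD4, C1QA and C1QB matched no identifier and have no values here.

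The libraries come from liver biopsies of 6 male rhesus macaques aged about 4.6 years. Each animal was sampled at baseline and again when a 90-day induction with ethanol had ended. During the induction all animals took a daily ethanol dose of 0.5 g per kg, raised to 1 and finally 1.5 g per kg, each for 30 days. They then had free access to ethanol for 12 months, after which 3 were classed as light drinkers (LD, a daily intake of 1.5 g per kg) and the other 3 as very heavy drinkers (VHD, 4 g per kg). The class names thus describe drinking that came after both biopsies: at baseline no animal had gone through the induction, and post-induction all had gone through the same one. Both classes at both times make 4 groups of 3 libraries, and the number in a library's name marks the animal within its class.

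Kupffer cells sit in the sinusoids, the small blood vessels of the liver, where they take up bacteria, worn red cells and debris from portal blood. Their survival depends on signals through the receptor CSF1R, and they carry scavenger receptors and complement proteins that tag or bind particles for uptake. In alcohol-related liver injury, products of gut bacteria that reach the liver are known to act on these cells.

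Transcript counts per library ran from 5970033 to 25060718, and the counts of the 7 genes ran from 20 for CD68 to 4143 for C1QC. Levels are given as CPM, depth-scaled counts from library totals corrected by the normalization factors of edgeR, and are compared between libraries for 1 gene, not between genes. ALB, a defining hepatocyte gene, was abundant in every library, at 75121 to 165558 CPM. APOA1, set as another, varied more, from 658 CPM in LD post-induction 2 to 5385 CPM in LD post-induction 1. TTR, also set, matched no identifier. A pair of libraries, VHD baseline 3 and VHD post-induction 2, stood apart from the other 10 on the second principal component of all genes (20.6% of the variance, scores of -92.65 and -82.31), and results that rest on them are given with and without them. The first component (31.4% of the variance) set 5 libraries on the side opposite to the other 7. They were 2 of LD (post-induction 2 and 3) and 3 of VHD (baseline 2, post-induction 1 and post-induction 3).

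CSF1R is the receptor for the growth factors CSF1 and IL34 (ENSMMUG00000011556, Mmul_8.0.1 chromosome 6, 148187885 to 148221423, minus strand). Its level at baseline was 5.36, 3.35 and 5.25 CPM in LD animals 1, 2 and 3, and 7.66, 7.63 and 7.66 CPM in the VHD animals. All VHD baseline libraries stood above all LD baseline libraries. Post-induction the level was 9.06, 4.20 and 7.09 CPM in LD and 5.52, 4.76 and 5.10 CPM in VHD. Each LD animal was higher than at its own baseline and each VHD animal lower, and in VHD the groups did not overlap. The closeness of the 3 VHD baseline values is tighter than their counts of 74, 124 and 207 can resolve, since counting alone gives errors of 11.6%, 8.98% and 6.95% against a coefficient of variation of 0.234% among them.

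CD163, the scavenger receptor that clears complexes of haemoglobin and haptoglobin (ENSMMUG00000005150, chromosome 11, 7829964 to 7855893, minus strand), followed the same order of groups. Its baseline level was 16.8, 10.1 and 14.0 CPM in LD and 22.8, 24.6 and 21.1 CPM in VHD, again without overlap. Post-induction it was 20.6, 11.5 and 17.8 CPM in LD and 19.0, 13.7 and 14.0 CPM in VHD. The highest VHD post-induction library was below the lowest VHD baseline library. The ratio of CSF1R to CD163 within a library stayed between 0.29 and 0.44 over all 12 libraries.

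MARCO, a scavenger receptor for bacteria and particles (ENSMMUG00000002610, chromosome 12, 12240320 to 12296711, minus strand), spread far more widely. It stood at 22.5, 17.0 and 22.9 CPM in LD baseline and 29.1, 21.9 and 37.4 CPM in VHD baseline. Post-induction it was 36.3, 9.38 and 13.8 CPM in LD and 19.3, 44.8 and 13.4 CPM in VHD, so that 1 library of each class, LD post-induction 1 and VHD post-induction 2, was above all baseline libraries of its class and the other 2 were below them. Its highest level was 4.78 times its lowest, the widest ratio of the 7 genes. MARCO was 9.38 to 21.9 CPM in the 5 libraries set apart on the first component and 17.0 to 44.8 CPM in the other 7.

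CD5L, a secreted protein that macrophages make and that binds lipids and immunoglobulin M (ENSMMUG00000019835, chromosome 1, 132481335 to 132491186, minus strand), was 10.9, 6.58 and 13.2 CPM in LD baseline and 12.1, 17.0 and 24.2 CPM in VHD baseline. Post-induction it was 16.2, 8.99 and 15.9 CPM in LD and 14.1, 20.0 and 10.2 CPM in VHD. CD5L was higher than at baseline in all 3 LD animals and in VHD animals 1 and 2, and lower in VHD animal 3 alone.

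The complement genes come next. VSIG4, the complement receptor of resident macrophages that binds C3b (ENSMMUG00000002750, chromosome X, 60238105 to 60256946, minus strand), was 9.34, 2.40 and 7.98 CPM in LD baseline and 7.66, 10.1 and 7.59 CPM in VHD baseline. Post-induction it was 8.16, 6.47 and 4.70 CPM in LD and 5.66, 6.46 and 3.34 CPM in VHD. LD baseline 2 was the lowest of all libraries, and the VHD post-induction libraries were all below the VHD baseline libraries.

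C1QC encodes a chain of C1q, the recognition molecule of the classical complement pathway (ENSMMUG00000020756, chromosome 1, 21417868 to 21422436, plus strand). It was 96.6, 58.8 and 73.7 CPM in LD baseline and 67.1, 86.5 and 153 CPM in VHD baseline. Post-induction it was 85.0, 42.6 and 79.5 CPM in LD and 60.4, 141 and 52.7 CPM in VHD. The highest values, 153 and 141 CPM, belong to the pair of libraries that stood apart, and no other library passed 96.6 CPM.

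CD68, a lysosomal membrane glycoprotein of macrophages (ENSMMUG00000013501, chromosome 16, 7559298 to 7561132, plus strand), rested on the fewest counts, 20 to 93 per library. It was 3.46, 2.02 and 1.72 CPM in LD baseline and 2.07, 4.86 and 3.44 CPM in VHD baseline, and 3.07, 2.26 and 2.11 CPM in LD post-induction and 2.90, 3.39 and 2.48 CPM in VHD post-induction. The groups overlapped at both times.

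**Figure D1:**
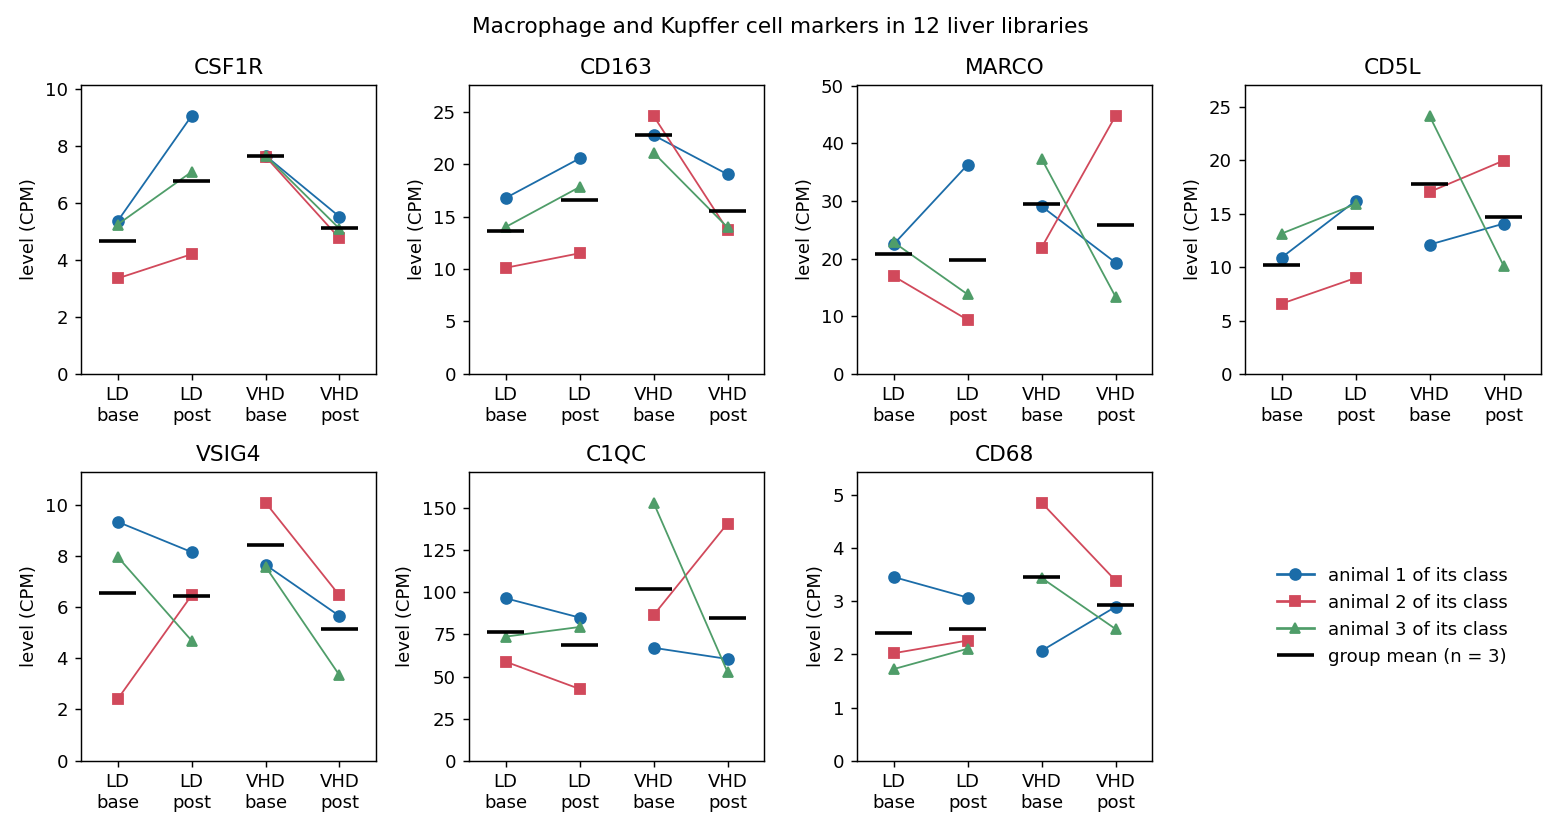
Level of each of the 7 genes in CPM (vertical axes, linear from 0) in the 4 groups; lines join the libraries of 1 animal, symbols mark its number in its class, and black bars are means of 3 libraries. CSF1R and CD163 run upward in all LD animals and downward in all VHD animals, while MARCO and C1QC cross, with VHD post-induction 2 at 44.8 and 141 CPM.

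The first comparison asked whether livers of the later very heavy drinkers differed from those of the later light drinkers before any induction. All 7 genes had a higher fitted level in VHD, with a median log2 difference of 0.57, where the median over all 18373 genes was 0.07 and 56.6% were positive. None of the 7 passed the threshold (adjusted p below 0.05, edgeR quasi-likelihood test with Benjamini-Hochberg adjustment over all genes), and among all genes 1 did, or 0.00544%. The largest differences were those of CD5L (0.81 ± 0.40 SE), CD163 (0.75 ± 0.31) and CSF1R (0.72 ± 0.35), each with an adjusted p of 1.00. CD163 had a 95% interval of 0.07 to 1.42 and was the 1 gene of the 7 with an unadjusted p under 0.05 (unadjusted p = 0.0328, edgeR).

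CD68 (0.57 ± 0.42), MARCO (0.51 ± 0.52), C1QC (0.42 ± 0.45) and VSIG4 (0.38 ± 0.46) differed by amounts close to their standard errors. Without the pair of libraries that stood apart, C1QC came to 0.01, MARCO to 0.30 and CD5L to 0.52, while CD163 and CSF1R were 0.80 and 0.73. The VHD baseline libraries lay wholly above the LD baseline libraries for 2 of the 7 genes, CSF1R and CD163, and for 4.13% of all genes tested. In bulk tissue, fewer cells of a type and less RNA per cell cannot be told apart, so these levels do not separate the number of macrophages from the content of each.

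Markers of other cells were summed in the same baseline livers. The summed level of 10 sinusoidal endothelial genes was 253 to 299 CPM in LD and 316 to 356 CPM in VHD, and that of 6 genes of T and NK cells was 7.21 to 11.1 CPM in LD and 11.3 to 17.8 CPM in VHD. Both stood higher in VHD without overlap. The 6 erythroid genes summed to 28.6 to 57.6 CPM in LD and 23.5 to 24.8 CPM in VHD, lower in VHD without overlap. The sums for neutrophils, hepatocytes, stellate cells, cholangiocytes and B and plasma cells overlapped between the classes. For the 8 stellate genes that rests on VHD baseline 3, without which they summed to 188 to 195 CPM in VHD against 151 to 182 CPM in LD. That of 6 neutrophil genes was 10.9 to 15.0 CPM in LD and 13.8 to 44.9 CPM in VHD, or 13.8 to 25.7 CPM in VHD without VHD baseline 3. That of 7 hepatocyte genes was 211273 to 245733 CPM in LD and 133195 to 248858 CPM in VHD. The 7 macrophage genes themselves summed to 100.3 to 165 CPM in LD and 148 to 255 CPM in VHD, or 148 to 173 CPM without VHD baseline 3. Such a sum mostly follows its most abundant genes. C1QC alone was 96.6 of the 165 CPM in LD baseline 1 and 153 of the 255 CPM in VHD baseline 3. None of the markers found was at 0 in all libraries, and the part of these cell types in the baseline differences was not tested.

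The second comparison followed each class through the induction. In LD the 7 genes went both ways, 4 positive and 3 negative, with a median log2 change of 0.09 against 0.08 over all genes. CSF1R was higher by 0.55 ± 0.35, CD5L by 0.43 ± 0.40 and CD163 by 0.29 ± 0.31. Without LD post-induction 1 the changes of CSF1R and CD163 came to 0.28 and 0.11, and without LD post-induction 2 to 0.81 and 0.50. CD68 stood at 0.09, VSIG4 at -0.01, MARCO at -0.06 and C1QC at -0.14. None passed the threshold (smallest adjusted p = 0.879, edgeR), as for all genes tested, where 0.0% did, with 1047 genes at an unadjusted p under 0.05 and 54 genes called by DESeq2. The interval of the MARCO change was -1.17 to 1.05.

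In VHD all 7 genes had a negative fitted change, with a median of -0.27 where the median of all genes was 0.03 and 47.6% were negative. That median was -0.57 without VHD post-induction 2, -0.14 without VHD post-induction 3 and -0.53 without the pair of libraries that stood apart. The values were -0.72 ± 0.46 for VSIG4, -0.58 ± 0.35 for CSF1R and -0.55 ± 0.31 for CD163, and between -0.27 and -0.19 for C1QC, CD5L, CD68 and MARCO. None passed (every adjusted p = 1.00, edgeR), and among all genes 0.0% did, with 632 at an unadjusted p under 0.05 and 64 called by DESeq2. The post-induction libraries lay wholly below baseline for 3 of the 7, CD163, CSF1R and VSIG4, and for 3.89% of all genes. Without that pair MARCO came to -0.65, C1QC to -0.44 and VSIG4 to -1.01. The VHD baseline libraries enter both this comparison and the baseline one, so the higher baseline and the lower post-induction levels are not independent of each other. The endothelial list went from 316 to 356 CPM at VHD baseline to 195 to 421 CPM post-induction. Without the pair of libraries it went from 316 to 330 CPM to 195 to 265 CPM, lower without overlap. Its part in the changes of the 7 genes was not tested.

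In VHD animal 3 all 7 genes were lower post-induction, with a median log2 change of -1.15 and a lowest value of -1.54. In VHD animal 1, 5 of the 7 were lower (median -0.26), and in VHD animal 2, 4 were lower (median -0.50), while MARCO was higher there by 1.03. In the LD animals 4, 5 and 5 of the 7 were higher, with medians of 0.29, 0.18 and 0.27. The baseline library of VHD animal 3 and the post-induction library of VHD animal 2 are the pair that stood apart.

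**Figure D2:**
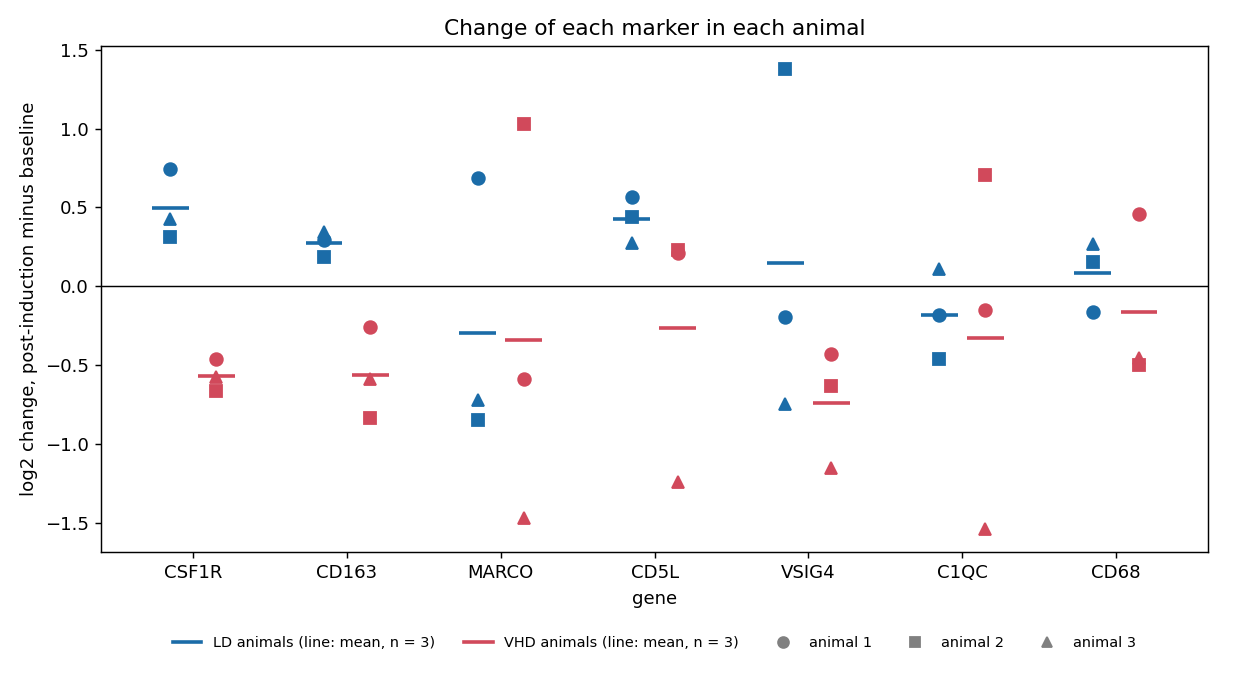
Log2 change from baseline to post-induction (vertical axis) of each gene in each animal, LD in blue and VHD in red, with short lines for the mean of 3 animals. All LD points of CSF1R and CD163 are above 0 and all VHD points below it, whereas the VHD points of MARCO and C1QC spread from about -1.5 in animal 3 to 1.03 and 0.70 in animal 2.

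The third comparison asked whether the response to the induction differed between the classes. All 7 genes had a more negative response in VHD than in LD (median difference -0.70, against -0.05 over all genes, of which 53.8% were negative). The difference was -1.13 ± 0.49 for CSF1R (95% interval -2.19 to -0.07, unadjusted p = 0.0378, adjusted p = 1.00, edgeR) and -0.84 ± 0.44 for CD163 (interval -1.80 to 0.11, unadjusted p = 0.078, adjusted p = 1.00). VSIG4 had -0.71 ± 0.65 and CD5L -0.70 ± 0.56, and CD68, C1QC and MARCO had -0.34, -0.13 and -0.13. None passed, and 0.0% of all genes did, with 239 at an unadjusted p under 0.05 and 1 called by DESeq2.

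By animal, CSF1R had log2 changes of 0.74, 0.31 and 0.43 in LD animals 1, 2 and 3, and of -0.46, -0.67 and -0.58 in the VHD animals. CD163 had changes of 0.29, 0.18 and 0.34 in LD and -0.26, -0.83 and -0.59 in VHD. These were the 2 genes of the 7 that were higher in every LD animal and lower in every VHD animal, a pattern met by 122 of all genes tested (0.664%). This difference shares its VHD baseline and LD baseline libraries with the baseline comparison.

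**Figure D3:**
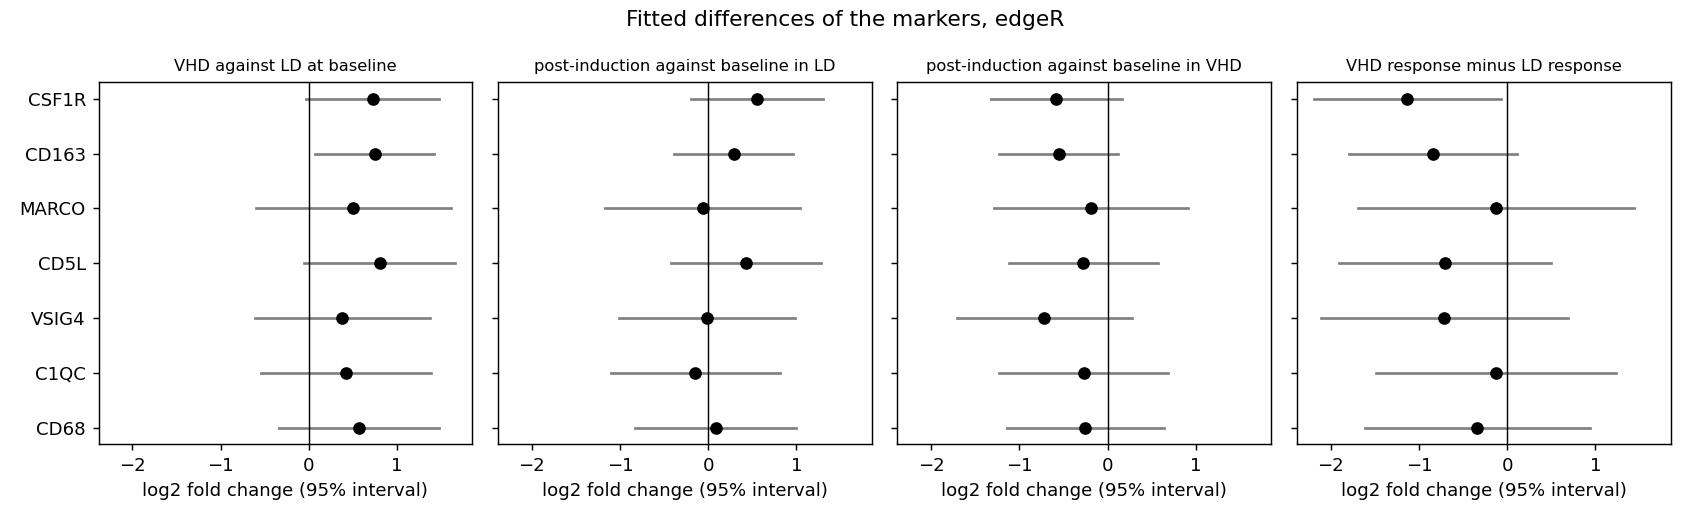
Fitted log2 differences (points) with 95% intervals (lines) of the 7 genes in 4 comparisons, named above each panel, from the edgeR fit. All points are above 0 at baseline and below 0 for the VHD response and for the difference of the responses, and nearly all intervals cross 0, the exceptions being CD163 at baseline and CSF1R in the difference.

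Taking both classes together, the mean response of the 7 genes had a median log2 change of -0.13, with 6 negative and 1 positive, against 0.07 over all genes. The median was -0.23 without LD post-induction 1 and -0.029 without LD post-induction 2, and with a term for the 5 and 7 libraries of the first component it was positive, at 0.075. None passed (smallest adjusted p = 0.848, edgeR), where 0.267% of all genes did. Post-induction, VHD and LD differed by a median of 0.11, with 4 genes positive and 3 negative, and none passed (every adjusted p = 1.00, edgeR, 0.0% of all genes). Without the pair of libraries that stood apart this last median was -0.29.

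Pearson correlations of log2 CPM over the 12 libraries of 6 animals, which share depth and tissue makeup, lay between 0.38 and 0.92 for the 21 pairs, with a median of 0.54. CSF1R and CD163 were the closest pair at 0.92, and 0.91 without the libraries that stood apart. C1QC with MARCO had 0.82 and C1QC with CD5L 0.80, which came to 0.70 and 0.61 without them. In those libraries C1QC, MARCO and CD5L took their highest levels, whereas CD163, CSF1R, VSIG4 and CD68 did not. In the other 10 libraries the 3 genes did not stand together: CD5L had 0.88 with CSF1R and 0.84 with CD163, above its 0.61 with C1QC and 0.46 with MARCO. The median over those libraries was 0.61 within C1QC, MARCO and CD5L, 0.60 within the other 4 genes and 0.62 between the 2 sets.

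The ratio of C1QC to CD163 sets the same pair of libraries apart. It was 7.27 in VHD baseline 3 and 10.3 in VHD post-induction 2, and 2.95 to 5.81 in the other 10. Within LD the ratio was 5.75, 5.81 and 5.26 at baseline and 4.14, 3.70 and 4.46 post-induction, so that all 3 animals were lower and the times did not overlap. In the other VHD libraries it was 2.95 and 3.51 at baseline and 3.17 and 3.77 post-induction. This ratio was chosen after the values were seen, and it was not tested.

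**Figure D4:**
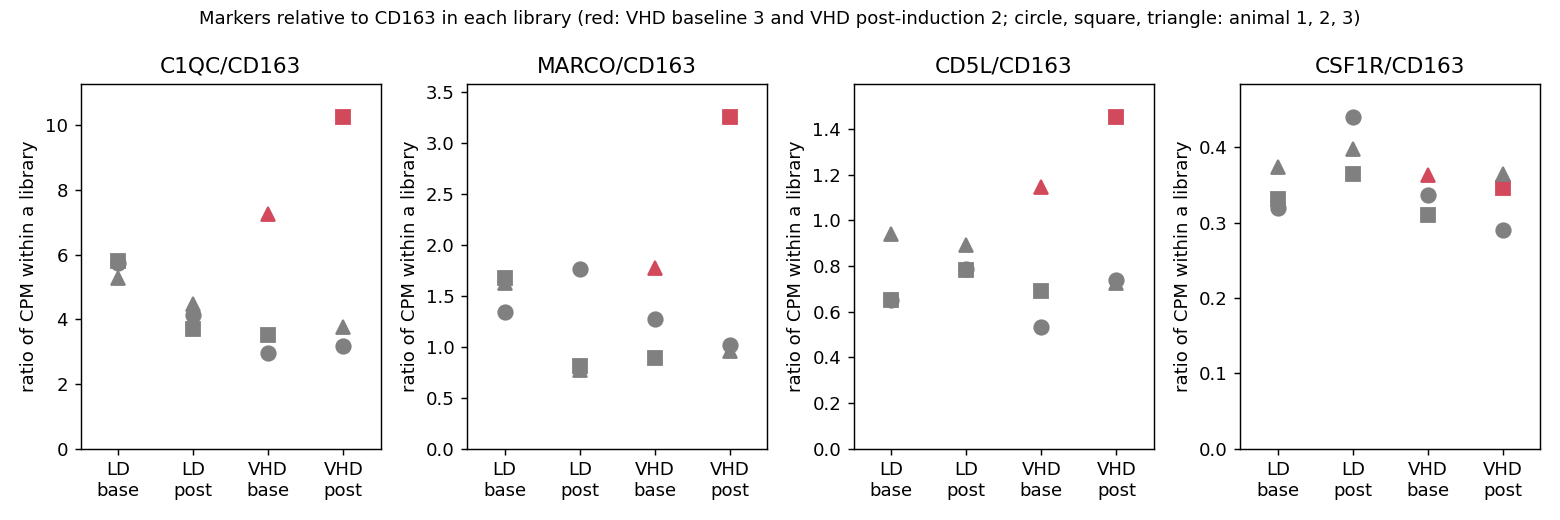
Ratio of the CPM of C1QC, MARCO, CD5L and CSF1R to that of CD163 in each library (vertical axes, linear from 0), by group, with VHD baseline 3 and VHD post-induction 2 in red. The red points are at 7.27 and 10.3 for C1QC, above the other 10 libraries, and lie inside the range of the others for CSF1R.

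Among 10136 named genes with an average log2 CPM of at least 1, the 5 whose log2 CPM was most like the mean standardized level of the 7 markers over the 12 libraries were ARHGAP25 (r = 0.90), STAB2 (0.86), SLC27A3 (0.85), SYT12 (0.84) and VIM (0.83). ARHGAP25 is a regulator of the GTPase Rac in blood cells, and STAB2 is the hyaluronan receptor of sinusoidal endothelium. Without the pair of libraries that stood apart these genes had r of 0.86, 0.85, 0.91, 0.87 and 0.88 in the same order. ARHGAP25 ranged from 3.35 to 6.33 CPM and STAB2 from 11.1 CPM in LD baseline 2 to 49.8 CPM in VHD post-induction 2.

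By single gene, a search added after the values were seen, the closest gene to both CD163 and CSF1R was MRC1, the macrophage mannose receptor (0.85 and 0.81). C1QC was closest to FOLR2, the folate receptor of resident macrophages (0.93), and CD5L to STAB2 (0.87). CD68 was closest to GBA2 (0.87) and VSIG4 to AIM2 (0.83). MARCO was closest to the complement proteins CFD (0.96), the protease factor D, and CFP (0.95), properdin, with SLC27A5 next at 0.95. CFD was 168 CPM in VHD post-induction 2 and 131 CPM in VHD baseline 3, above the 18.1 to 88.2 CPM of the other libraries, which is the pair where MARCO was also highest. Without that pair MARCO had 0.94 with CFD, 0.92 with CFP and 0.93 with SLC27A5, and MRC1 had 0.92 with CD163 and 0.89 with CSF1R. C1QC then had 0.93 with FOLR2, CD5L 0.86 with STAB2, CD68 0.86 with GBA2 and VSIG4 0.86 with AIM2.

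Around these markers 10 lists of genes were examined, with 141 names, of which 119 were found and 114 tested. None of the 114 passed the threshold in any of the 6 comparisons in either direction (edgeR). At baseline 71 of the 114 were positive and 43 negative (62.3% positive, median 0.17), where 56.6% of all genes were positive. Without the pair of libraries that stood apart 113 were tested, 69 positive and 44 negative (median 0.11). In the difference of the responses 34 were positive and 80 negative (median -0.20), or 27 and 86 without the pair (median -0.27). The genes named below led their list by unadjusted p at baseline or in the mean response, except IL34, SPI1, C1R and C1S, which were picked after their values were seen.

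CSF1, the ligand of CSF1R, was 28.9, 50.7 and 25.9 CPM in LD baseline and 12.1, 9.44 and 16.1 CPM in LD post-induction. In VHD it was 43.4, 17.6 and 32.6 CPM at baseline and 18.6, 14.1 and 9.07 CPM post-induction. All 6 animals were lower post-induction, without overlap in LD and with overlap in VHD. In LD the post-induction libraries lay wholly below baseline for 6.17% of all genes tested. The share of all genes lower in all 6 animals is not given here, for CSF1 or for the genes below. The mean response was -1.33 ± 0.29, which missed the threshold (adjusted p = 0.101, edgeR). IL34, the second ligand, had 0.04 ± 0.27 at levels of 1.38 to 2.78 CPM. The ligand CSF1 was thus lower in all animals, while its receptor was higher in LD and lower in VHD animals, none of it past the threshold. Of the 7 tested genes of CSF1R ligands and signalling, 4 were positive and 3 negative, both at baseline and in the mean response.

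**Figure D5:**
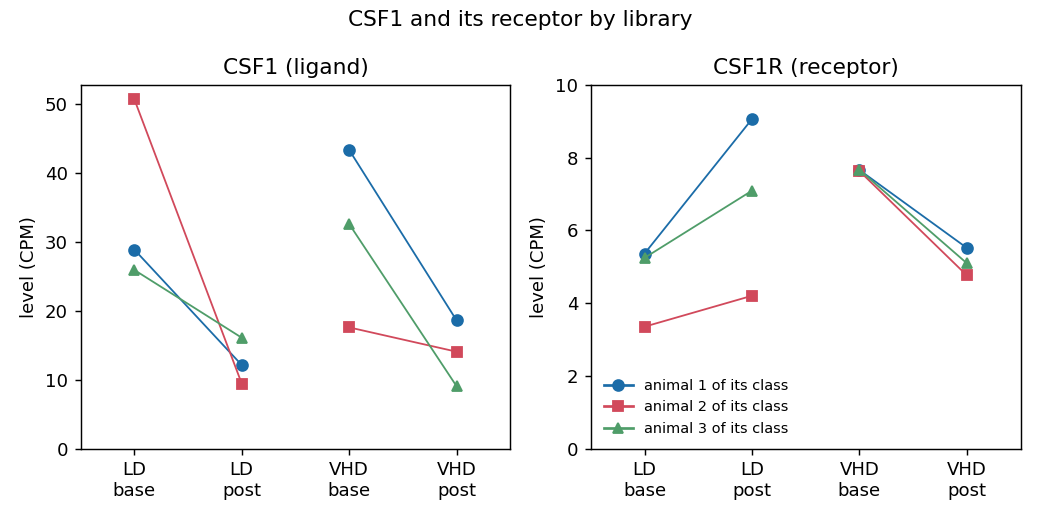
Level in CPM (vertical axes, linear from 0) of the ligand CSF1 and the receptor CSF1R in the 4 groups, with lines joining the libraries of 1 animal. CSF1 runs downward in all 6 animals, and CSF1R upward in the 3 LD animals and downward in the 3 VHD animals.

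Of 23 other Kupffer and resident macrophage genes, 18 had a positive difference between VHD and LD at baseline (median 0.23) and 17 a negative change in VHD (median -0.27). Their leading values at baseline were those of CLEC1B, a C-type lectin receptor (1.35 ± 0.46), and AXL, a receptor for apoptotic cells (1.79 ± 0.69). CLEC1B is also among the sinusoidal endothelial genes summed above. Without the pair of libraries that stood apart CLEC1B came to 0.86 ± 0.45 and AXL to 1.28 ± 0.65. Then 16 of the 23 genes were positive at baseline and 19 negative in VHD (median -0.49). In the mean response AXL had 1.57 ± 0.47 (adjusted p = 0.30) and CETP, the lipid transfer protein that Kupffer cells make, -0.93 ± 0.31 (adjusted p = 0.375). CETP was lower post-induction in 5 of 6 animals and AXL higher in 5 of 6.

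Of 11 macrophage transcription factors, 10 were positive at baseline (median 0.45), or 9 without that pair (median 0.40). SPI1, the master regulator of myeloid cells, had a mean response of -0.04 ± 0.26 at levels of 7.56 to 28.8 CPM, and 0.11 ± 0.24 without the pair.

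Of 9 tested monocyte and recruited macrophage genes, all 9 were positive at baseline (median 0.79) and all 9 negative in the difference of the responses (median -0.71). Without the pair of libraries that stood apart these counts came to 7 positive (median 0.72) and 5 negative (median -0.52). S100A8, a calcium-binding protein of monocytes that neutrophils also carry and which the neutrophil list above holds, had the largest values. It was 1.38, 4.11 and 3.02 CPM in LD baseline and 4.14, 5.72 and 15.9 CPM in VHD baseline. The lowest VHD value, 4.14 CPM, was barely above the highest LD value, 4.11 CPM, and the groups also failed to overlap in this direction for 4.13% of all genes. Post-induction S100A8 was 1.01, 2.07 and 1.44 CPM in LD and 1.38, 0.82 and 1.13 CPM in VHD, lower in all 6 animals. Its difference at baseline was 1.57 ± 0.54 (adjusted p = 1.00, edgeR) and its mean response -1.97 ± 0.40 (adjusted p = 0.0693), which came to 0.76 ± 0.49 and -1.48 ± 0.37 without the pair of libraries that stood apart.

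Of 11 tested macrophage activation genes, 10 were positive at baseline (median 0.71) and 10 negative in the difference of the responses (median -1.19), and without the pair both counts were also 10 (medians 0.83 and -1.02). TLR4, the receptor for bacterial lipopolysaccharide, had 1.84 ± 0.74 at baseline. That difference rests on low levels, 0, 0.76 and 0.22 CPM in LD baseline and 0.93, 1.72 and 1.41 CPM in VHD baseline. The highest TLR4 level of all libraries was 3.07 CPM, in VHD post-induction 3.

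The complement list held 18 tested genes, of which 14 were negative in the mean response (median -0.29). At baseline 7 of them were positive and 11 negative, and without the pair of libraries that stood apart 14 were positive and 4 negative. C1R, the protease that binds C1q, was lower post-induction in 6 of 6 animals, with a mean response of -0.32 ± 0.25 (adjusted p = 0.809, edgeR), and C1S, its partner, had -0.30 ± 0.36. Without the pair the value of C1R was -0.56 ± 0.22.

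The medians of the other lists in the mean response were -0.02 for 10 genes of haemoglobin and iron handling and 0.02 for 13 of apoptotic cell uptake. They were -0.06 for 12 genes of the lysosome and -0.15 for 9 of lipid-associated macrophages. Without the pair of libraries that stood apart these medians came to -0.23, 0.05, -0.14 and -0.14 in the same order. At baseline the lists were near evenly divided, with 5 of 10, 6 of 13, 5 of 12 and 4 of 9 positive. Without the pair 3 of 10, 7 of 13, 4 of 12 and 3 of 8 were positive. Among the lipid-associated genes, TREM2, a lipid receptor, had 1.33 ± 0.66 at baseline from levels of 0.25 to 1.26 CPM. The highest level was that of VHD baseline 3, and the classes overlapped, with 0.55 CPM in VHD baseline 2 and 0.69 CPM in LD baseline 1. TREM2 was not among the 8 genes of its list tested without the pair.

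The transcript table splits 3 of the 7 genes into several transcripts, by the authors' own estimate of counts. CD163 had 3, of which ENSMMUT00000007258 took 25.1% (LD baseline 2) to 69.6% (VHD post-induction 2) of the counts. CSF1R had 2, and ENSMMUT00000016183 took 72.0% to 100% of them. The 2 transcripts of CD68 share their start and end, and the share of ENSMMUT00000018950 ran from 0.377% in LD post-induction 2 to 100% in VHD post-induction 3. With identical ends and 20 to 93 counts a library these CD68 shares are uncertain, and the gene totals above do not depend on them.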

How the data were processed

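Per the labels, 500 ng of total RNA (RIN above 8.5) per biopsy was made into NEXTFLEX Combo-Seq libraries and read in 76 bases on an Illumina NovaSeq. The authors deposited expected counts per Ensembl transcript and per mature miRNA. The submitters' processing notes list BWA, Bowtie and Partek, and Mmul_8.0.1 as the build. Their versions and roles, and the annotation release, were not given in the sources used here. A start coordinate may be off by 1 base, since its counting base is not stated.

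The 40611 transcripts were summed per gene identifier and rounded, and symbols came from the reference table. Genes were filtered with filterByExpr and fitted with edgeR 4.0.16 (R 4.3.3): TMM factors, the 4 group means over 12 libraries, a robust quasi-likelihood test, and adjustment by Benjamini-Hochberg over 18373 genes in each of 6 comparisons, at 0.05. The code was tested on simulated data. Intervals are 95% and log2 CPM had a prior count of 2. DESeq2 1.42.0, other normalizations and filters, a term for the animal and leaving out each library were alternatives. The genes and the lists were chosen with earlier results of these data known. Within each partner list the 2 genes with the smallest unadjusted p at baseline and in the mean response were the ones to be named, and others are marked where they appear. Not every gene that led a list is reported here.

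Libraries with the same number in a class are 1 animal, per the titles. Deviations from group means correlated within animals by 0.07, -0.02 and 0.35 in LD and 0.41, -0.35 and 0.10 in VHD. The term for the animal changed no call among the 7 genes.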

Additional observations from a re-analysis of the deposited data

Results flagged for a closer look

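CSF1R and CD163 had higher levels post-induction in every LD animal and lower levels in every VHD animal. The mean log2 change in VHD minus that in LD was -1.06 for CSF1R and -0.83 for CD163, over 3 animals against 3. The fitted difference of the responses did not pass the threshold for either gene (adjusted p = 1.00, edgeR quasi-likelihood test), and 0.664% of all genes tested showed the same pattern of signs.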

How the results depend on the processing

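Under 18 alternatives (12 of them leaving out 1 library) none of the 7 genes passed the threshold in any comparison, the smallest adjusted p being 0.384. Directions were counted for single genes at baseline, in LD, in VHD and in the difference of the responses. The mean response and the post-induction difference were not in this count. Of these 504 values, 472 kept their direction, and 32 reversed, 26 of them when 1 library was left out. With a replicate block (a term for the animal, or the number between classes) VSIG4 in LD came to 0.13. No other gene of the 7 reversed with it in the comparisons counted. VSIG4 in LD came to 0.0019 without the filter. With a term for the 5 and 7 libraries of the first component, an alternative chosen after seeing the data, as was leaving out the pair of libraries, the LD change was 0.13 for VSIG4, 0.55 for MARCO and 0.32 for C1QC (median of the 7 genes 0.32), and the VHD change of MARCO was 0.044. The median difference post-induction was -0.29 without the pair of libraries. The cause of these shifts was not tested.

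Leaving out 1 library in turn, the baseline difference ran from -0.032 to 0.65 for VSIG4 and from -0.048 to 0.65 for C1QC, the negative ones without LD baseline 2 and VHD baseline 3. The LD change ran from -0.11 to 0.33 for CD68, -0.84 to 0.28 for MARCO, -0.42 to 0.25 for VSIG4 and -0.32 to 0.11 for C1QC (median -0.10 to 0.33). The VHD change ran from -0.57 to 0.013 for CD5L, -0.50 to 0.0055 for CD68, -0.86 to 0.11 for MARCO and -0.86 to 0.15 for C1QC. The difference of the responses ran from -0.80 to 0.65 for MARCO and -0.72 to 0.35 for C1QC (median -0.87 to -0.30), and the median difference post-induction from -0.29 to 0.32. The median of the 7 genes ran from -0.57 to -0.14 in VHD and from -0.23 to -0.029 in the mean response, where the term for the 5 and 7 libraries gave 0.075. CD163 and CSF1R kept their direction in all of these in the 4 comparisons, with sizes that moved: 0.57 to 0.86 and 0.53 to 0.83 at baseline, 0.11 to 0.50 and 0.28 to 0.81 in LD, and -1.06 to -0.66 and -1.39 to -0.87 in the difference of the responses.

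Over all genes, the mean response had 49 calls, against 284 with DESeq2, 4 with the replicate block, 103 with the term for the 5 and 7 libraries, 32 without the pair, and 0 to 71 without 1 library.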

Other observations

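The same biopsies gave miRNA counts, and miRNAs known from myeloid cells were read as values. Of 427 miRNAs tested, 0 passed in any of the 6 comparisons (edgeR quasi-likelihood test). miR-223, an abundant miRNA of granulocytes and monocytes, ranged from 16.0 to 132 CPM on 5 to 45 counts, and its change was 0.17 ± 0.91 in LD and 0.06 ± 0.91 in VHD. Its mature sequence lies 3244 bases before the start coordinate of VSIG4 on chromosome X, on the opposite strand. Since VSIG4 is on the minus strand, that coordinate marks where the gene ends, not where its transcription begins. miR-155, induced on macrophage activation, was 27.5 CPM (12 counts) in VHD baseline 3 and 2.57 CPM (1 count) in VHD post-induction 2. These are the pair of libraries that stood apart, and miR-155 was 174 to 410 CPM in the other 10. miR-146a-5p was 64.3 CPM in VHD post-induction 2, and 206 to 578 CPM in the others. In the same order the pair had 45.8 and 23.2 CPM of miR-150-5p, its lowest levels. For miR-142-5p the values were 45.8 and 0 CPM, and for miR-146a-3p 18.3 and 0 CPM. Not all arms were low there. In VHD baseline 3 miR-150-3p took its highest level, 245 CPM, and so did miR-142-3p, at 59.6 CPM on 26 counts. In VHD post-induction 2 these were 108 and 7.72 CPM.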
